A study of Mus musculus with 2 samples.

Results

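Cyp11a1 and Rgs1 were followed through single-cell RNA sequencing of AE9a leukemia cells, an acute myeloid leukemia model driven by a truncated AML1-ETO fusion. They are 2 of the 31053 genes in the files, taken by symbol and chosen by the difference of their summed counts between the libraries, as rises outside the interferon-stimulated genes. That difference is therefore a description and not a test of anything. Both libraries came from Usp18+/f UBCER-Cre fetal liver cells that had been given AE9a and GFP by retrovirus and transplanted, so the floxed allele, the fusion and a Cre driven by a ubiquitous promoter were shared by both groups. Sick recipients were injected with oil (Usp18+/f) or with tamoxifen (Usp18+/Δ), GFP+ Lin- c-Kit+ splenocytes were sorted 3 days after the first injection, and cells of 3 mice were pooled per group. Deletion of the allele and exposure to tamoxifen coincide in this design and cannot be told apart. After filtering, 6546 cells with 58068183 UMIs (unique molecular identifiers, counts of captured transcripts) remained for Usp18+/f and 7073 cells with 59503327 UMIs for Usp18+/Δ, with medians of 8575.5 and 8023 UMIs per cell. Each group was a single library, so no spread between replicates could be measured. Every interval below is a 95% interval that covers counting error only, and no difference between the libraries was tested.

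Cyp11a1 encodes the mitochondrial side-chain cleavage enzyme that turns cholesterol into pregnenolone, the entry step of all steroid hormone synthesis. It is best known from the adrenal gland and gonads and has also been described in some immune cells, mast cells among them. Rgs1 belongs to the regulators of G protein signaling, which speed up GTP hydrolysis by Gα subunits and so shorten the signal of receptors for chemokines and related attractants. It is abundant in activated lymphocytes and some myeloid cells. The 3 partner genes stand for separate programs: Cpa3 encodes the carboxypeptidase of mast cell granules, Cdkn1a the cell cycle inhibitor p21 induced by p53, and Isg15 a ubiquitin-like protein induced by type I interferon.

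The Usp18 message itself went against its label. It had 330 UMIs, or 5.68 CPM (the gene's UMIs per 1000000 UMIs of the kept cells), under the label Usp18+/f and 1434 UMIs, or 24.1 CPM, in the library labelled Usp18+/Δ. Usp18 is itself interferon-inducible, and 3′ counts cannot separate transcripts of the deleted and the intact allele. The libraries are therefore named by their labels throughout. Kit, the gene of the sorted surface receptor, was detected at 96.8 and 102 CPM. Of the marker lists of other cells, the 4 T cell markers summed to 12 and 7 UMIs, with Cd3d at 0 in both libraries. The 3 NK cell markers summed to 418 and 1035 UMIs, nearly all of Nkg7, with Ncr1 at 0. The 3 progenitor markers summed to 5979 and 7067 UMIs with Flt3 at 0, and the 2 plasmacytoid markers to 8163 and 15104 UMIs with Siglech at 0 and all counts from the interferon-inducible Bst2. The 5 macrophage markers summed to 121 and 334 UMIs and the 5 neutrophil markers to 2 and 1340. The 4 erythroid markers, most of them globin genes, had the largest sum of any list, 222975 and 238011 UMIs, followed by the 10 mast cell markers with 110947 and 121697 UMIs.

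Cyp11a1 (ENSMUSG00000032323) lies on the plus strand of mouse chromosome 9, from 58006411 to 58027023 in mm10, with 4 annotated transcripts. Its principal transcript has 9 exons and starts at 58014671. Rgs1 (ENSMUSG00000026358) lies on the minus strand of chromosome 1, from 144242296 to 144249242, with 9 transcripts and 5 exons in the principal one. RefSeq (GRCm38.p6) gives Cyp11a1 a start at 58014952. Its promoter window, 250 bases before to 50 bases after the start, is chr9:58014702-58015001. It is shown beside the window of Isg15, chr4:156200769-156201068 on the minus strand, because Isg15 is the interferon-induced partner to which both genes are compared below. Capitals mark matches on either strand to the interferon-stimulated response element core GAAANNGAAA, to the GATA motif (GATAA or GATAG preceded by A or T) and to the nuclear receptor half-site AGGTCA.
Cyp11a1: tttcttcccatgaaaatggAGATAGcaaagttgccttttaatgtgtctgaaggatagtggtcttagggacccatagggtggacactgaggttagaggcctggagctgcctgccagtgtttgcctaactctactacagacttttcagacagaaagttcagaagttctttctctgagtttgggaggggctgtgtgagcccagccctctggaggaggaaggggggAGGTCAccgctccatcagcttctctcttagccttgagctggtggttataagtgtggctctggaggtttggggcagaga
Isg15: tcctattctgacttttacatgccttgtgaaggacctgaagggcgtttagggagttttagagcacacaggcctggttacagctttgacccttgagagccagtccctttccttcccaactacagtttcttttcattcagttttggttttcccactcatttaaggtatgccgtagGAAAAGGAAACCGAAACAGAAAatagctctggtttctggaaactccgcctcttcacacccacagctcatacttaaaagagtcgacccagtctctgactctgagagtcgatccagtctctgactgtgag
The Isg15 window held 3 overlapping matches to the response element core, beginning at bases 173, 179 and 185, and the Cyp11a1 window held 0, as did a further RefSeq window of Cyp11a1 at chr9:57997774-57998073. Of 32851 RefSeq promoter windows of this length, 3.44% held that core. The Cyp11a1 window held AGATAG at bases 20 to 25 and AGGTCA at bases 223 to 228, motifs found in 29.8% and 16.3% of all windows. A match to a few letters is common and describes the sequence only.

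Cyp11a1 was higher in the Usp18+/Δ library both in the number of cells that carried it and in the number of transcripts per carrying cell. Cyp11a1 had 7770 UMIs, or 134 CPM (131 to 137), in Usp18+/f and 19912 UMIs, or 335 CPM (330 to 339), in Usp18+/Δ. The log2 ratio was 1.32 (1.28 to 1.36), a 2.5-fold difference. At least 1 UMI was found in 2449 of 6546 cells (37.4%, 36.2 to 38.6) and in 5009 of 7073 cells (70.8%, 69.7 to 71.9). Because a deeper cell shows more genes, shares were also taken after thinning each cell to 3000 UMIs, which left 6090 and 6723 cells and excluded 456 and 350. At this equal depth 25.1% (24.02 to 26.22) and 51.6% (50.4 to 52.8) of cells were positive, a log2 ratio of shares of 1.04 (0.97 to 1.11). The remaining part of the difference was in transcripts per positive cell, 1.83 and 2.24 UMIs after thinning.

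Rgs1 rose by a similar factor in summed counts but through a different distribution of cells. It had 931 UMIs, or 16.03 CPM (15.02 to 17.10), in Usp18+/f and 2192 UMIs, or 36.8 CPM (35.3 to 38.4), in Usp18+/Δ, a log2 ratio of 1.20 (1.09 to 1.31) or 2.30-fold. Positive cells were 10.9% (10.2 to 11.7) and 15.9% (15.1 to 16.8) without thinning, and 5.29% (4.74 to 5.88) and 8.33% (7.68 to 9.02) at 3000 UMIs. The log2 ratio of shares at equal depth was 0.66 (0.46 to 0.85), and that of the summed counts in the same thinned cells 1.06. The ratio of shares depended on the depth and the threshold, with 1.06 at 1500 UMIs, 0.37 at 5000 and 1.88 when a cell counted as positive from 2 UMIs. Of the 8879 genes whose mean level reached 5 CPM, 1.17% were at least 1.5-fold higher in Usp18+/Δ and 0.18% at least 1.5-fold lower. Both genes belong to the former by choice. By size of rise Cyp11a1 ranked 24 and Rgs1 28 of these genes.

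The top of the Rgs1 distribution was long in the library labelled Usp18+/Δ. Cells with 3 or more Rgs1 UMIs numbered 39 (0.60% of cells) in Usp18+/f and 157 (2.22%) in Usp18+/Δ, and they held 16.9% and 47.8% of all Rgs1 UMIs. Cells with 10 or more UMIs numbered 2 and 18 and held 24 and 454 UMIs, that is 2.58% and 20.7% of the gene's total. The largest count in a cell was 14 in Usp18+/f and 72 in Usp18+/Δ. Without the cells at 10 or more UMIs the log2 ratio of Rgs1 was 0.91 (0.79 to 1.02), a setting added after the data were seen. Cyp11a1 had no such tail, with maxima of 18 and 22 UMIs, and its cells at 10 or more UMIs held 11.8% and 16.6% of its total.

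**Figure D1:**
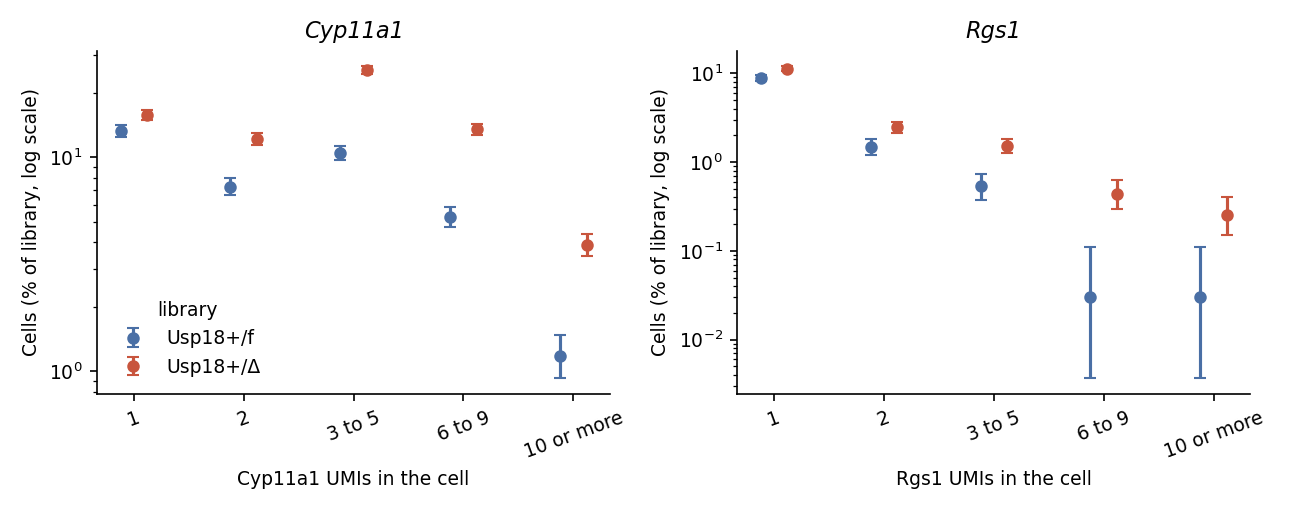
Percent of cells (log axis, 95% Clopper-Pearson intervals) by the number of Cyp11a1 UMIs (left) or Rgs1 UMIs (right) in the cell, without thinning, in the libraries labelled Usp18+/f (blue) and Usp18+/Δ (red). Every Cyp11a1 class from 1 UMI upwards was larger in Usp18+/Δ, whereas for Rgs1 the gap was small at 1 UMI (8.83% and 11.2%) and wide at 10 or more (0.031% and 0.25%).

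Both genes were found more often in cells with the mast cell gene Cpa3, in both libraries. After thinning, Cpa3 was positive in 909 of 6090 cells of Usp18+/f and in 1365 of 6723 cells of Usp18+/Δ. Cyp11a1 was detected in 39.5% (36.3 to 42.8) of Cpa3-positive and 22.6% (21.5 to 23.7) of Cpa3-negative cells of Usp18+/f. In Usp18+/Δ the corresponding shares were 71.1% (68.6 to 73.5) and 46.7% (45.4 to 48.0). The contrast was steeper for Rgs1. It was detected in 12.5% (10.5 to 14.9) of Cpa3-positive and 4.01% (3.50 to 4.59) of Cpa3-negative cells of Usp18+/f, and in 18.8% (16.8 to 21.0) and 5.66% (5.05 to 6.31) of those of Usp18+/Δ. Before thinning, Cpa3-positive cells had medians of 6823 and 6178 UMIs and Cpa3-negative cells 9235 and 8709.5. The size of the contrast varied with the depth used: for Cyp11a1 in Usp18+/Δ the log2 ratio of the shares was 0.61 (0.54 to 0.67) at 3000 UMIs, 0.87 at 1500 and 0.34 without thinning.

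Cyp11a1 climbed with the amount of Cpa3. In Usp18+/f its share went from 22.6% in cells without Cpa3 to 36.1% at 1 to 2 Cpa3 UMIs, 46.0% at 3 to 5 and 49.1% at 6 or more. In Usp18+/Δ the same steps were 46.7%, 64.8%, 80.5% and 84.4%. The log2 ratio of Cyp11a1 CPM between the libraries was nearly the same at each step, from 1.17 (0.92 to 1.43) to 1.39 (1.14 to 1.64). Rgs1 went along the same steps from 4.01% to 22.4% in Usp18+/f and from 5.66% to 28.2% and 27.7% at the last steps in Usp18+/Δ, with log2 ratios of CPM from 0.75 (0.17 to 1.36) to 0.97 (0.46 to 1.52). Cpa3 was itself higher in Usp18+/Δ, 101 and 190 CPM. Weighting the Usp18+/Δ cells to the Cpa3 classes of Usp18+/f brought the log2 ratio of Cyp11a1 from 1.34 to 1.24 and that of Rgs1 from 1.06 to 0.89 in thinned cells.

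The members were then set against Isg15. Isg15 rose from 20.9 to 116 CPM and was positive in 357 and 1223 thinned cells. The share of cells with Cyp11a1 was close with and without it, 25.8% (21.3 to 30.6) and 25.1% (23.9 to 26.2) of cells of Usp18+/f and 51.8% (49.0 to 54.7) and 51.6% (50.3 to 52.9) of cells of Usp18+/Δ. Its share was 51.6% at 0, 52.3% at 1 to 2, 48.7% at 3 to 5 and 52.6% at 6 or more Isg15 UMIs in Usp18+/Δ. Its level in these classes was 382 (373 to 392), 402 (380 to 425), 364 (311 to 423) and 491 CPM (406 to 590), so the share was close across the classes while the level of the last lay above that of the first. Another interferon gene, Ifit1, was present in 2.15% (1.68 to 2.71) of Usp18+/Δ cells without Cyp11a1. The Ifit1 share was 3.12% (2.30 to 4.12) at 1 Cyp11a1 UMI, 2.54% (1.60 to 3.82) at 2 and 4.47% (3.32 to 5.86) at 3 or more. In Usp18+/f it was 0.24% (0.12 to 0.43) without Cyp11a1 and 0% (0 to 1.13) at 3 or more Cyp11a1 UMIs. The share of Rgs1 in Usp18+/Δ was 7.24% (6.57 to 7.95) at 0, 10.8% (8.93 to 12.9) at 1 to 2, 19.5% (13.5 to 26.6) at 3 to 5 and 32.1% (21.9 to 43.6) at 6 or more Isg15 UMIs. The corresponding Rgs1 levels were 33.0, 59.9, 149 and 346 CPM. In Usp18+/f the shares were 5.18% (4.62 to 5.79) at 0 and 7.33% (4.80 to 10.6) at 1 to 2 Isg15 UMIs, which overlap, and only 16 cells had more Isg15, too few to place Rgs1. With Isg15 as present or absent, the log2 ratio of the Rgs1 shares in Usp18+/f was 0.43 (-0.14 to 0.99), and with another seed of the thinning it was 0.71 (0.17 to 1.24), so whether its interval spanned 0 depended on the seed. The Isg15 classes were drawn after the data were seen.

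**Figure D2:**
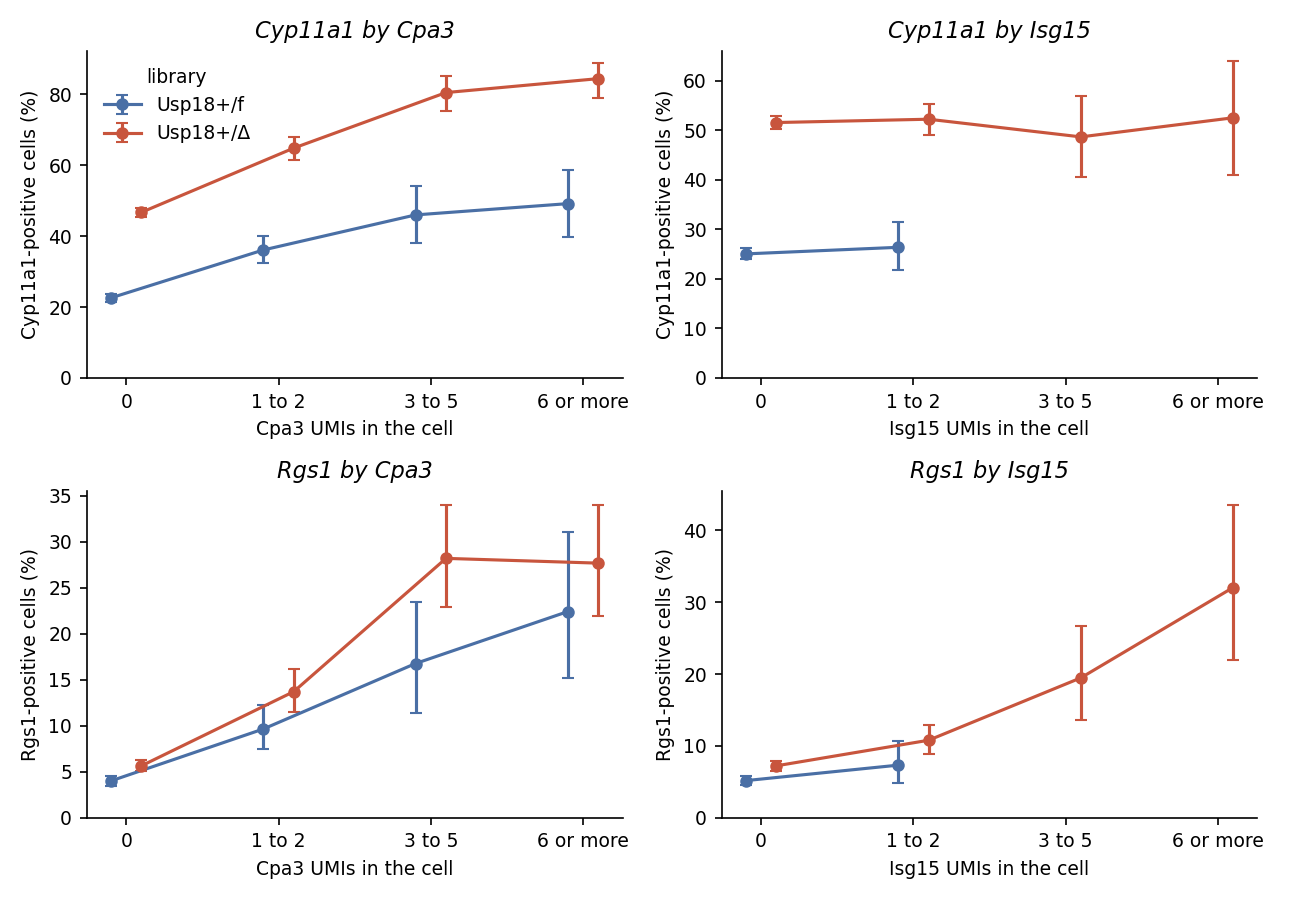
Percent of cells positive for Cyp11a1 (top) or Rgs1 (bottom) by the Cpa3 UMIs (left) or Isg15 UMIs (right) in the same cell, all thinned to 3000 UMIs, with 95% Clopper-Pearson intervals. Classes under 50 cells are not drawn. The Cyp11a1 share climbed with Cpa3 and stayed between 48.7% and 52.6% across Isg15 in Usp18+/Δ, while the Rgs1 share there climbed with Isg15 and, up to 3 to 5 UMIs, with Cpa3 (28.2%, then 27.7% at 6 or more).

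Rgs1 was also followed by Cpa3 and Isg15 together. In Usp18+/Δ, Rgs1 was found in 4.97% (4.35 to 5.65) of cells with neither gene, 8.92% (7.16 to 10.9) with Isg15 alone, 16.6% (14.41 to 18.95) with Cpa3 alone and 27.1% (22.0 to 32.5) with both. In Usp18+/f the shares were 3.95% (3.42 to 4.54), 5.0% (2.83 to 8.11), 12.2% (10.1 to 14.6) and 17.5% (8.75 to 29.9), where the intervals with and without Isg15 overlap in both Cpa3 classes. The log2 ratio of shares between the libraries was 0.33 (0.06 to 0.60) in cells with neither gene, against 0.66 (0.46 to 0.85) over all thinned cells. For Cyp11a1 the ratio in those same cells was 1.06 (0.97 to 1.14). Weighting the cells to the Isg15 classes of Usp18+/f, with Isg15 as present or absent, left Cyp11a1 at 1.33 and brought Rgs1 to 0.81.

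The 18 cells of Usp18+/Δ with 10 or more Rgs1 UMIs were described further, a choice made after their counts were seen. Isg15 was present in 17 of them, at a median of 11 UMIs and up to 50, whereas 33.0% of the other cells of that library had any. Isg15 reached 1552 CPM in these cells and 111 CPM in the others, and Ifit1, an antiviral gene induced by interferon, 521 and 13.2 CPM. All 18 carried Cyp11a1, which reached 812 CPM against 333 CPM in the others, while 9 carried Cpa3 and 8 Cdkn1a. They came from several clusters, 8 from cluster 2, 4 each from clusters 3 and 4 and 2 from cluster 1. None had a complement C1q transcript, a macrophage gene. Only 146 of the 7073 cells of that library had any, so finding none here says little. Totals of the 18 cells ran from 5350 to 15801 UMIs, within the range of ordinary cells. The only 2 such cells of Usp18+/f had 0 and 2 Isg15 UMIs and 1 Cpa3 UMI each. Ifit1 was present in 1 of them with 5 UMIs, which put the pair at 501 CPM of Ifit1 against 1.17 CPM in the other cells, and Isg15 at 200 against 20.9 CPM. At the lower level of 3 or more Rgs1 UMIs, Cpa3 was present in 59.0% (42.1 to 74.4) of 39 cells of Usp18+/f and 72.6% (64.9 to 79.4) of 157 cells of Usp18+/Δ, against 24.8% and 32.5% of the remaining cells. Isg15 was present in 15.4% (5.86 to 30.5) and 51.0% (42.9 to 59.0), against 13.5% and 32.8% of the remaining cells.

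**Figure D3:**
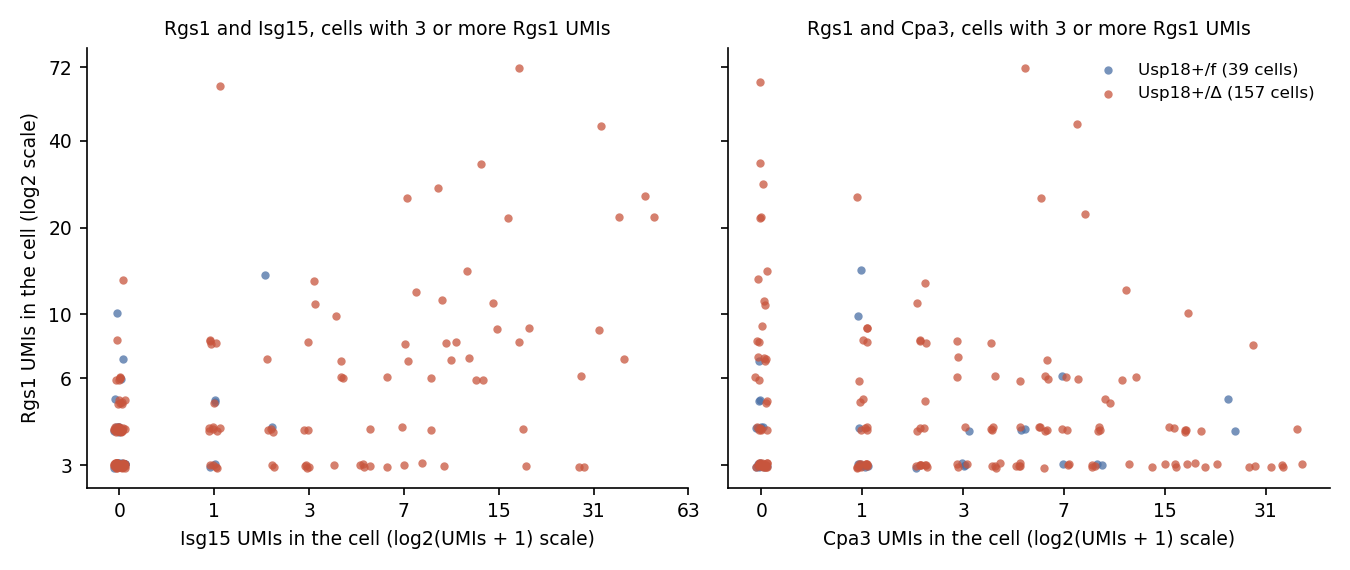
Rgs1 UMIs against Isg15 UMIs (left) and Cpa3 UMIs (right) in each cell with at least 3 Rgs1 UMIs, on log2 axes with a small random shift so that equal counts do not hide each other; 39 cells of Usp18+/f (blue) and 157 of Usp18+/Δ (red), not thinned. The cells at 10 or more Rgs1 UMIs in Usp18+/Δ had Isg15 in 17 of 18 and Cpa3 in 9 of 18.

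Cdkn1a, which rose from 21.9 to 62.9 CPM, separated cells by either member less than Cpa3 did. Cyp11a1 was positive in 24.4% (19.8 to 29.4) of Cdkn1a-positive and 25.1% (24.03 to 26.29) of Cdkn1a-negative cells of Usp18+/f. In Usp18+/Δ the shares were 48.0% (44.6 to 51.3) and 52.2% (50.9 to 53.5). Their log2 ratio was -0.12 (-0.23 to -0.02), whose interval spanned 0 at 1500 UMIs (-0.26 to 0.07), at 5000 UMIs (-0.15 to 0.01) and with at most 5% mitochondrial UMIs (-0.60 to 0.06). Rgs1 was positive in 4.57% (2.58 to 7.43) and 5.33% (4.76 to 5.94) in Usp18+/f, and in 10.4% (8.43 to 12.6) and 8.02% (7.34 to 8.75) in Usp18+/Δ, where the log2 ratio of the shares was 0.37 (0.06 to 0.67). For Rgs1 the interval spanned 0 with another seed of the thinning (0.27, -0.03 to 0.58), at 1500 UMIs (0.25, -0.21 to 0.71), without thinning (0.16, -0.01 to 0.33) and with at most 5% mitochondrial UMIs (0.036, -0.68 to 0.70). The log2 ratio of Cyp11a1 CPM was 1.25 (0.99 to 1.51) in cells with Cdkn1a and 1.36 (1.29 to 1.42) in cells without it.

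**Figure D4:**
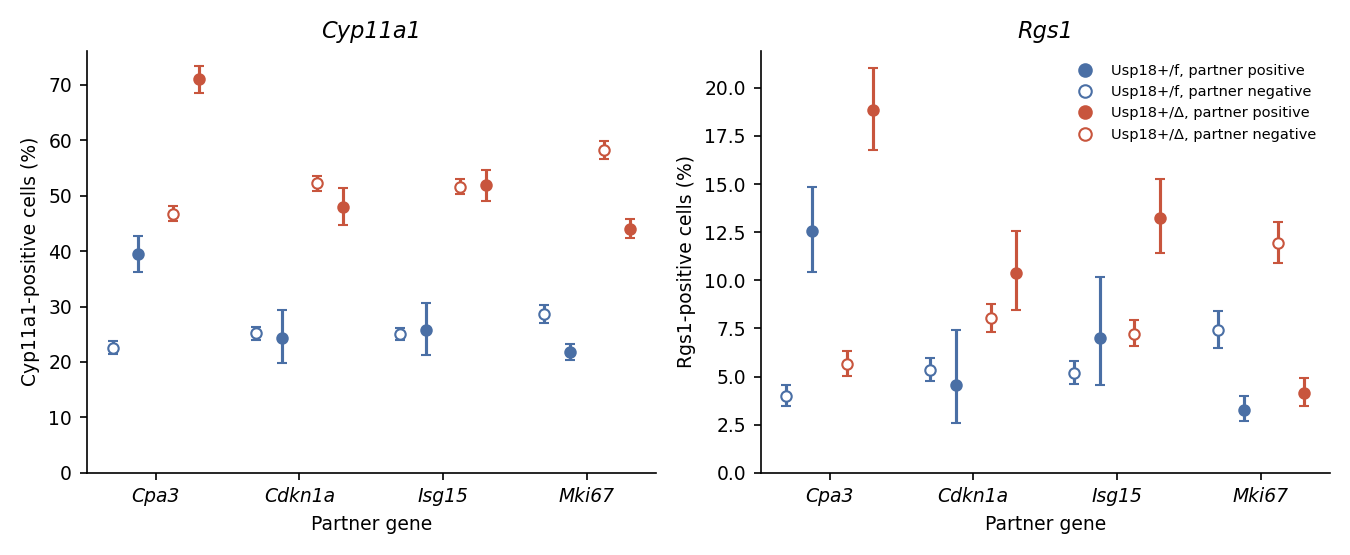
Percent of cells positive for Cyp11a1 (left) or Rgs1 (right) among cells positive (filled) or negative (open) for Cpa3, Cdkn1a, Isg15 or the proliferation gene Mki67, in Usp18+/f (blue) and Usp18+/Δ (red), thinned to 3000 UMIs, with 95% Clopper-Pearson intervals. Both genes were more frequent with Cpa3 and less frequent with Mki67 in both libraries, and Rgs1 with Isg15 in Usp18+/Δ was 13.2% against 7.24% without.

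Over all thinned cells both members were less frequent with a proliferation gene and more frequent with several mast cell genes. With Mki67, a nuclear protein of cycling cells, Cyp11a1 was present in 21.8% of cells of Usp18+/f, against 28.7% without it, and in 44.1% against 58.2% of Usp18+/Δ. For Rgs1 the shares were 3.29% against 7.40% and 4.14% against 11.9%. Without thinning, the 18 cells with 10 or more Rgs1 UMIs in Usp18+/Δ went the other way. They had Mki67 in 15 of 18 against 59.0% of the other cells, at 642 and 500 CPM. These 18 cells were deeper, with a median of 10537.5 UMIs against 8023 in the library, and a deeper cell shows more genes. After thinning, Mki67 was in 26.9% (16.8 to 39.1) of the 67 cells with 3 or more Rgs1 UMIs, against 48.4% (47.2 to 49.7) of cells without Rgs1. Fcer1a, the α chain of the high-affinity IgE receptor, marked cells with more of both: Cyp11a1 35.7% against 20.8% in Usp18+/f and Rgs1 8.62% against 3.92%. The progenitor antigen Cd34 was rare, in 100 and 344 thinned cells. Among Cd34-positive cells Cyp11a1 was present in 49.0% (38.9 to 59.2) and 74.4% (69.5 to 78.9), and Rgs1 in 10.0% (4.90 to 17.6) and 20.9% (16.8 to 25.6). Gata2, a transcription factor of mast cells and progenitors, was only weakly related to either, for Cyp11a1 27.7% against 23.2% in Usp18+/f. Mcpt1, a mast cell protease, fell from 180 to 81.9 CPM between the libraries, opposite to Cpa3, yet cells with Mcpt1 had more of both members in each library (Cyp11a1 31.8% against 24.1% in Usp18+/f and 64.7% against 50.5% in Usp18+/Δ).

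Cells with both members were more frequent than the product of the separate shares. Cells with both numbered 133 (2.18%) in Usp18+/f, where the product of the shares is 1.33%, and 421 (6.26%) in Usp18+/Δ, where it is 4.30%. Of these cells 44.4% (35.8 to 53.2) and 52.5% (47.6 to 57.4) also had Cpa3. Cells with neither member fell from 71.8% to 46.3%. Rgs1 was also compared between the libraries in cells with and without Cyp11a1. Among Cyp11a1-positive cells Rgs1 went from 8.70% (7.33 to 10.2) to 12.1% (11.1 to 13.3), a log2 ratio of shares of 0.48 (0.21 to 0.75). Among Cyp11a1-negative cells it went from 4.14% (3.58 to 4.76) to 4.28% (3.61 to 5.03), a log2 ratio of 0.05 (-0.26 to 0.35). These intervals overlap. The log2 ratio of Rgs1 in cells with over cells without Cyp11a1 was 1.07 (0.76 to 1.38) in Usp18+/f and 1.504 (1.24 to 1.77) in Usp18+/Δ as reported. It was 1.36 and 1.41 with another seed of the thinning and 1.28 and 1.37 at 1500 UMIs. At 5000 UMIs it was 1.07 and 1.39, and without thinning 0.98 and 1.22. The size of the gap between the libraries thus depended on the thinning. Cyp11a1 was higher in Usp18+/Δ both in cells with Rgs1 (41.3% to 75.2%) and without it (24.2% to 49.5%). More cells counted as Cyp11a1-positive in Usp18+/Δ, so these classes do not hold the same kinds of cells in both libraries.

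Clustering without the members, the partners and the interferon list gave 8 clusters. Cluster 1 was led by Tpsg1, Serpinb1a, Csf2rb2, Mcpt4, Mcpt2 and Cpa3 and had the highest level of both members in both libraries. Cyp11a1 was at 283 CPM (268 to 297) and 699 CPM (682 to 717) there, and Rgs1 at 62.3 CPM (55.6 to 69.4) and 114 CPM (107 to 122). Cluster 4, led by the replication licensing and repair genes Ung, Cdc6 and Mcm4, was the next of the 6 large clusters, with Cyp11a1 at 187 and 416 CPM and Rgs1 at 22.4 and 38.6 CPM. In the other 4 large clusters Cyp11a1 lay between 87.7 and 126.9 CPM in Usp18+/f and between 217 and 261 CPM in Usp18+/Δ. Cyp11a1 was higher in Usp18+/Δ in each of the 8 clusters, with log2 ratios from 0.91 (0.78 to 1.05) in cluster 5, led by the mitotic gene Ccnb1, to 1.67 (0.69 to 2.58) in the shallow cluster 6 with 35 and 15 UMIs.

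Rgs1 was uneven across the clusters. Its log2 ratio was 2.11 (1.76 to 2.47) in cluster 2, led by the S-phase histone gene Hist1h1a, where it went from 82 to 384 UMIs. It was 1.12 (0.82 to 1.43) in cluster 3, 0.88 (0.69 to 1.06) in cluster 1, 0.78 (0.53 to 1.05) in cluster 4 and 0.41 (0.07 to 0.75) in cluster 0. In cluster 5 it was -0.31 (-0.93 to 0.30), from 57 to 40 UMIs, so no difference was detectable there. Cluster 2 also held 8 of the 18 cells with 10 or more Rgs1 UMIs, and its share of Rgs1-positive cells moved less, from 6.15% (4.83 to 7.69) to 8.53% (7.07 to 10.2). Cluster 1 made up 13.8% of cells in Usp18+/f and 23.5% in Usp18+/Δ, but genes that lead it, such as Tpsg1 and Cpa3, are themselves unequal between the libraries, and its size is therefore not compared.

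**Figure D5:**
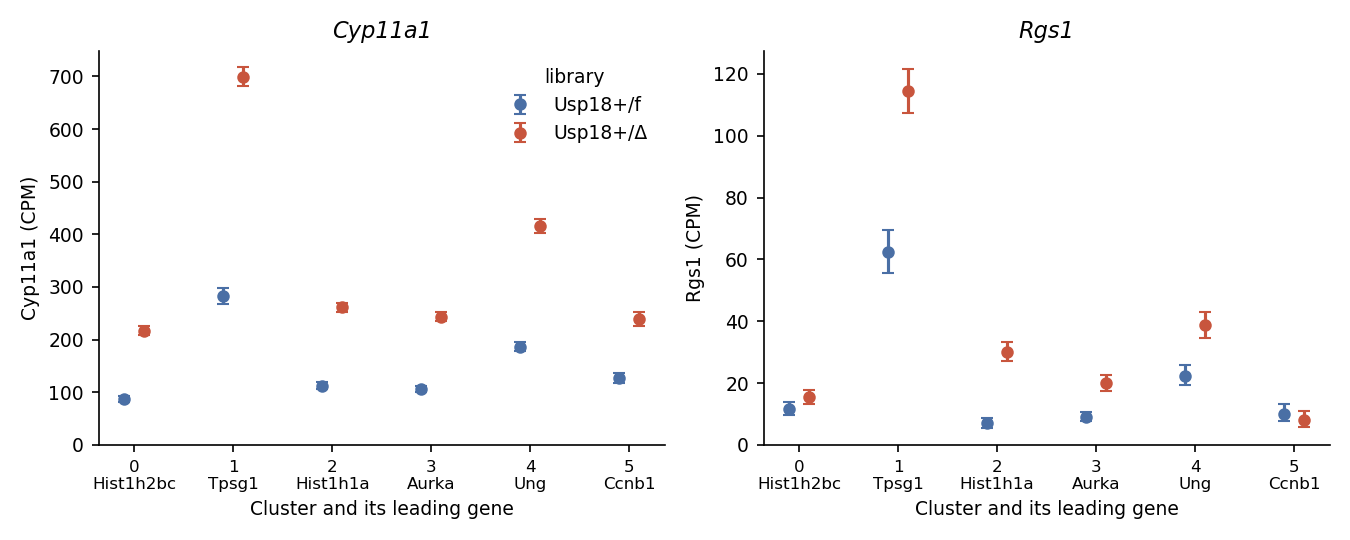
Cyp11a1 (left) and Rgs1 (right) in CPM, summed over the cells of each of the 6 large clusters (number and leading gene), in Usp18+/f (blue) and Usp18+/Δ (red), with exact Poisson 95% intervals. Both genes were highest in cluster 1, and Rgs1 in cluster 5 was 10.1 and 8.13 CPM with overlapping intervals.

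Free RNA in droplets can give UMIs to cells that do not express a gene. Cluster 7, led by the neutrophil gene S100a9 and the macrophage gene C1qa, among others, is the nearest to a type that should lack Cyp11a1, with 9 and 44 cells and medians of 11480 and 9102 UMIs. Mki67 was present in 77.8% and 65.9% of its cells, at 540 and 507 CPM, close to the 548 and 500 CPM of the whole libraries. Whether the cells of cluster 7 are neutrophils or macrophages was not tested. Cyp11a1 was present in 33.3% (7.49 to 70.1) and 75% (59.7 to 86.8) of the cells of cluster 7, at 114 and 330 CPM, close to the whole library. By this measure a Cyp11a1 share of that size cannot be told from background or from droplets with more than 1 cell, whereas the 699 CPM of cluster 1 lies above it. Of the other large clusters of Usp18+/Δ, cluster 4, at 416 CPM (402 to 429), also lay above the 330 CPM (277 to 389) of cluster 7. Clusters 0, 2, 3 and 5, at 217 to 261 CPM, lay below it. Cluster 7 of Usp18+/Δ had 140 Cyp11a1 UMIs to 17 of Cpa3, and the whole library had 19912 to 11320. Of the library's Cpa3 UMIs, however, 7879 were in cluster 1, and cluster 0 had 2368 of Cyp11a1 to 457 of Cpa3. Cpa3 was at 40.1 CPM in cluster 7 and 41.8 CPM in cluster 0. The part of free RNA in these values was not tested. Rgs1 was at 28.4 and 23.6 CPM in cluster 7, from 3 and 10 UMIs. Cells with any C1q transcript numbered 27 and 146 and held 0.86% and 1.87% of the Rgs1 UMIs and 0.49% and 2.36% of the Cyp11a1 UMIs.

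Mitochondrial share moved with both ratios. The median was 6.32% and 6.44% in the kept cells. Between 5% and 10% mitochondrial UMIs the log2 ratio of Cyp11a1 lay between 1.04 and 1.42 in bands of the share, and that of Rgs1 between 0.93 and 1.12. In cells with at most 5% the ratios were 2.20 for Cyp11a1 and 2.52 for Rgs1, against 1.32 and 1.20 over all kept cells. In the 700 and 671 cells between 2% and 5% it was 2.20 (2.06 to 2.33) for Cyp11a1 and 2.48 (2.09 to 2.89) for Rgs1. In that band cluster 1 supplied 90 cells of Usp18+/f and 344 of Usp18+/Δ. Up to 2%, 300 of 313 cells of Usp18+/f belonged to the shallow cluster 6. The bands were drawn after the data were seen, and their part in the overall ratios was not tested.

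Cyp11a1 was set beside the other genes of steroid synthesis. Of 28 listed genes, 11 had a mean of at least 5 CPM. Cyp11a1, chosen for its rise, was the only one at least 1.5-fold apart. With 1.17% of all genes higher and 0.18% lower, this is near the background and says little about the other genes. The other 10 had log2 ratios from -0.16 to 0.27. Among them were the electron donors of the enzyme, adrenodoxin (Fdx1, 114 and 109 CPM) and its reductase (Fdxr, 29.6 and 29.3 CPM), and Tspo, a protein of the outer mitochondrial membrane (510 and 522 CPM). Under that level Stard5, a sterol-binding protein, had 76 and 147 UMIs, a log2 ratio of 0.92 (0.51 to 1.34). Star, which carries cholesterol into mitochondria in steroid-making glands, was at 4.10 and 4.03 CPM. The enzymes that act on pregnenolone were rare: Hsd3b1 and Hsd3b6 had no UMI in either library, Hsd3b2 had 5 in each, and Cyp17a1 18 and 23. Nr5a1, the transcription factor of steroidogenic glands, had no UMI in either library, which allows up to 0.052 and 0.050 CPM. None of 29 measured genes of cholesterol synthesis, uptake and transport was at least 1.5-fold apart, which with 1.17% of all genes higher and 0.18% lower is near the background and says little about these genes. Soat1, which esterifies cholesterol, had the largest ratio of them at 0.58 and Insig1, a brake on sterol synthesis, the lowest at -0.55.

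Rgs1 was set beside its family in the same way. Of 21 listed Rgs genes 7 had a mean of at least 5 CPM. Rgs1, chosen for its rise, was the only one at least 1.5-fold apart. With 1.17% of all genes higher and 0.18% lower, this too is near the background and says little about the others. The ratios of the other 6 ran from -0.03 for Rgs13 to 0.33 for Rgs12, with Rgs10 (179 and 180 CPM) and Rgs19 (55.2 and 59.7 CPM) the most abundant. The next genes beside Rgs1 on the chromosome are also Rgs genes. Rgs13, at 64924 bases, had 1363 and 1372 UMIs, Rgs2, at 238135 bases, had 433 and 487 UMIs, and Rgs21 had none. Rgs18, at 503441 bases, had 96 and 200 UMIs, a log2 ratio of 1.02 (0.67 to 1.39), although at 1.65 and 3.36 CPM it lay under the level of 5 CPM set for the list. Rgs6 with 12 and 41 UMIs, a ratio of 1.74 (0.78 to 2.80), and Rgs16 with 1 and 8 UMIs, a ratio of 2.96 (0.07 to 8.44), were rarer still. None of 15 G protein subunits and none of 7 receptors for chemoattractants at or above 5 CPM was 1.5-fold apart, again near the background of 1.17% and 0.18%. Gnai2, a Gα target of Rgs proteins, was at 375 and 379 CPM. The receptor gene S1pr4 was at 64.9 and 65.2 CPM, P2ry14 at 53.7 and 53.9 CPM, and Cxcr4 had no UMI in either library.

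Beside Cyp11a1 on chromosome 9, Gm17322 overlaps its first annotated part on the same strand and had 132 and 170 UMIs, against 7770 and 19912 of Cyp11a1. Ccdc33, which begins 1654 bases beyond its end on the other strand, had 197 and 293 UMIs, a log2 ratio of 0.54 (0.27 to 0.81). Ubl7 had 1123 and 1269 UMIs, a ratio of 0.14 (0.02 to 0.26).

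Beside the 1.17% of all genes that were higher and the 0.18% that were lower, 30 of 33 measured interferon-stimulated genes were at least 1.5-fold higher in Usp18+/Δ (median log2 ratio 0.95, against 0.0074 over all genes). Of 22 mast cell genes 4 were higher (Tpsg1, Cpa3, Csf2rb2 and Fcer1a) and 2 lower (Mcpt1 and Mcpt2). Of 19 p53 target genes 5 were higher, Cdkn1a, Trp53inp1, Sesn2, Zmat3 and Ccng1. Of 15 immediate early and heat shock genes none was higher and Hspa1a, Hspa1b and Fosb were lower.

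The genes whose detection across cells was most like each member were named by Pearson correlation of log values in thinned cells, taking the lower of both libraries among 5983 genes. Cma1, a mast cell chymase, led for Cyp11a1 at r = 0.34 in Usp18+/f and 0.45 in Usp18+/Δ. It was followed by Fcer1a, Vim, Gmfg, Tph1, Lgals3, Csf2rb2, Cmtm7, Cpa3 and Gsn, with lower r from 0.18 to 0.23. For Rgs1 the order was Serpinb1a (0.22 and 0.19), Vim, Cma1, Cpa3, Neat1, Lgals3, Csf2rb2, Csf2rb, Fcer1a and Cyp11a1 (0.12 and 0.20). The lists shared 6 of their 10 genes. Taking the lower r leaves out genes related to a member in a single library. Isg15 correlated with Rgs1 at 0.016 in Usp18+/f and 0.16 in Usp18+/Δ, and with Cyp11a1 at -0.00014 and 0.011. Cells of a library share depth and droplets, and in counts this sparse correlations of this size describe the tables only.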

How the data were processed

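The 2 10x Genomics 3′ V3 single-cell libraries were read from the deposited matrices of raw UMI counts per gene and barcode, made by the authors with Cell Ranger 3.0.2 and mm10. Their later Seurat steps were not used here. A barcode entered when it held 500 or more genes and no more than 10% of its UMIs were mitochondrial. Scrublet's automatic threshold marked 0.0436% and 0.027% of cells and had thus not worked, so cells above the 95th percentile of its score were removed (340 and 333). The libraries shared 15 barcodes. In all, 735 and 760 of 7281 and 7833 barcodes were left out, from 63690481 and 65146263 UMIs.

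CPM is UMIs of a gene per 1000000 UMIs of the kept cells. Intervals are exact Poisson (sums), Clopper-Pearson (shares), exact conditional (ratios of sums) and score intervals (ratios of shares). A count of 0 allows up to 3 UMIs. Clusters came from scanpy 1.11.5 (2000 variable genes, 30 components, 20 neighbours, Leiden resolution 0.8). The functions were tested on simulated data. Coordinates are from GENCODE vM21, and 1 of the 2 members had a promoter in the RefSeq table.

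The members and gene lists were chosen with earlier results of these data known. Named genes were the members, partners, Usp18, fixed context genes, list members at 5 CPM or more that were 1.5-fold apart or up to 6 of the most abundant, chromosome neighbours, and the 10 genes most like each member. Steroid enzymes, Rgs18, Rgs6, Rgs16, Stard5, Star, Soat1, Insig1 and other genes outside that rule were named after their values were seen. Alternatives varied filters, doublets, scaling, thinning, the positive threshold and clustering.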

Additional observations from a re-analysis of the deposited data

Results flagged for a closer look

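Barcodes left out by the cell filter and the doublet removal, which entered no comparison of the report and only the alternatives with all barcodes or with doublets kept, showed the same direction for both genes. In the 735 and 760 such barcodes Cyp11a1 was at 144 CPM in Usp18+/f and 348 CPM in Usp18+/Δ, a log2 ratio of 1.28 (1.16 to 1.39). Rgs1 was at 17.8 and 37.0 CPM there, from 100 and 209 UMIs, a log2 ratio of 1.06 (0.71 to 1.42). Of these barcodes 340 and 333 were left out for their doublet score, and all came from the same pools, so they are not an independent sample.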

How the results depend on the processing

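No paired analysis was possible because there was a single library in each group. Of 139 values under alternatives, 103 stayed within the counting interval of the reported value (for a percent of genes, within 1.5 times) and 36 moved outside it. No value whose interval lay on 1 side of 0 changed sign. Some values whose interval spanned 0 did, among them Cyp11a1 with Isg15 in Usp18+/Δ, which was 0.0067 as reported. The cause of these moves was not tested. With at most 5% mitochondrial UMIs the log2 ratio of CPM was 2.20 for Cyp11a1 and 2.52 for Rgs1, and that of the positive shares 1.59 and 2.21. In those cells the log2 ratio of co-detection (share with over share without the partner) in Usp18+/Δ was 0.97 for Cyp11a1 with Cpa3, -0.25 for Cyp11a1 with Cdkn1a, 2.11 for Rgs1 with Cpa3, 0.036 (-0.68 to 0.70) for Rgs1 with Cdkn1a and 0.57 for Rgs1 with Isg15. In Usp18+/f it was 2.21 for Rgs1 with Cpa3 and 0.58 (-0.69 to 1.83) for Rgs1 with Cyp11a1. As the mean of per-cell CPM the library ratios were 1.43 and 1.36. Without cells at 10 or more UMIs, chosen after seeing the data, Rgs1 was at 0.91. The ratio of positive shares moved with depth: for Cyp11a1 1.16 at 1500 UMIs, 0.96 at 5000 and 0.92 without thinning, for Rgs1 1.06 at 1500 and 0.37 at 5000. Counting a cell as positive from 2 UMIs gave 1.41 and 1.88. Co-detection with Cpa3 moved likewise. For Cyp11a1 it was 1.03 at 1500 UMIs and 0.62 without thinning in Usp18+/f, and 0.87 at 1500, 0.50 at 5000 and 0.34 without thinning in Usp18+/Δ. For Rgs1 it was 2.09 at 1500, 1.05 at 5000 and 1.16 without thinning in Usp18+/f, and 1.46 at 5000 and 1.29 without thinning in Usp18+/Δ. Without thinning, in Usp18+/Δ, Cyp11a1 with Isg15 was at -0.10, Rgs1 with Isg15 at 0.35 and Rgs1 with Cyp11a1 at 1.22. Of genes averaging 1 CPM or more 2.67% were 1.5-fold higher, and of those at 20 CPM or more 0.702%.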
